A study of Mus musculus with 12 samples.

Results

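A set of 8 genes of heme breakdown, heme transport and their control was followed through liver macrophage libraries of mice with and without an inherited haemolytic anaemia. The set is Hmox1, Hmox2, Blvra, Blvrb, Slc48a1, Flvcr1, Spic and Bach1, chosen by name from the 25700 genes of the count table. This set and the lists used below were chosen with earlier results of these data known. Their counts and medians beside those of all tested genes therefore only describe the set and the lists. All 8 passed the filter on low counts. Macrophages of the liver and spleen engulf ageing red cells, and the heme released in the phagolysosome is carried to the cytosol by HRG1, the product of Slc48a1. Heme oxygenases (Hmox1, inducible, and Hmox2, constitutive) open the heme ring to biliverdin, carbon monoxide and iron, and the biliverdin reductases (Blvra and Blvrb) turn biliverdin into bilirubin. Flvcr1 encodes a membrane transporter described as a heme exporter and, more recently, as a choline transporter. BACH1 is a repressor that heme binds and removes from DNA, which frees targets such as Hmox1, and SPIC is a transcription factor that heme induces in macrophages that recycle iron.

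Bulk RNA sequencing covered 12 libraries in 4 groups of 3. Mice homozygous for the sph allele (sph/sph), whose red cells are fragile, and littermates named wild type (WT) received intraperitoneal saline or an activating (agonistic) anti-CD40 antibody at 20 mg/kg; CD40 is a receptor of macrophages and other immune cells. Animals were 8 to 10 weeks old and labelled male. The antibody acted for 30 h, and non-parenchymal cells of the digested liver were then enriched with beads coated with antibody to F4/80, the product of Adgre1. The strain is not given in the sources used here, the sph alleles are present in every cell of the animal, and the bead preparation is an enrichment, not a sort. The subject named by the series' title is an anti-inflammatory program of these macrophages driven by uptake of red cells.

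Depth ran from 14991250 to 18984067 counts per library. The column names of the count table call the control genotype heterozygous where the labels say wild type, and they carry no replicate number, so the letters A to C only name libraries in column order. Each name also holds a long number and a code that starts with SM, whose meanings are not stated. Under saline, library A of both genotypes shares the number and the code. Under anti-CD40, library A of both genotypes shares the number but not the code. In each group library A had 0 counts over 4 Y-linked genes, against 2436 to 4055 counts in the 8 other libraries, which goes against the label male for 4 libraries. With a term for this split in the model the same members passed in each of the 5 comparisons as without it. Markers checked the preparation: 8 Kupffer cell markers summed to 31044 to 35685 CPM (counts scaled to a common library size) under saline in WT and to 36005 to 51050.0 CPM in sph/sph. Marco alone went from a mean of 654 to 11323 CPM, and the 7 other markers summed to 30765 to 34943 CPM in WT and 25706 to 37732 CPM in sph/sph. The 13 erythroid markers summed to 77.3 to 333 CPM in WT and 5792 to 9481 CPM in sph/sph, also under saline. None of the markers of 10 cell types stood at 0 in any group. In bulk RNA, fewer cells of a type and less RNA per cell cannot be told apart.

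Levels below are CPM on library sizes scaled by the TMM method. Mean and SD are over 3 libraries, which are taken as separate mice from the series' design text. Differences are log2 folds of edgeR's quasi-likelihood model over all 12 libraries with their approximate standard error (SE), and a gene is said to rise or fall at a Benjamini-Hochberg adjusted p under 0.05 over the 13844 genes tested.

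The members differed widely in level. Scaled by exon length, WT saline libraries held Hmox1 at 831 ± 283 CPM per kb (SD, n = 3), and then Hmox2 at 103 ± 12.6, Blvrb at 99.4 ± 11.0 and Slc48a1 at 88.7 ± 8.87 CPM per kb, whose ranges overlap. Blvra followed at 43.2 ± 3.81, Spic at 23.6 ± 5.55, Bach1 at 17.4 ± 0.560 and Flvcr1 at 8.11 ± 1.31 CPM per kb. In sph/sph saline libraries Hmox1 stood at 6245 ± 338 CPM per kb and Slc48a1, at 313 ± 46.6, came next, above Blvrb at 152 ± 27.4 and Hmox2 at 125 ± 25.0. Blvra and Spic carried 76.3 ± 12.2 and 90.5 ± 13.9, Bach1 15.6 ± 0.879 and Flvcr1 5.76 ± 0.822 CPM per kb.

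**Figure D1:**
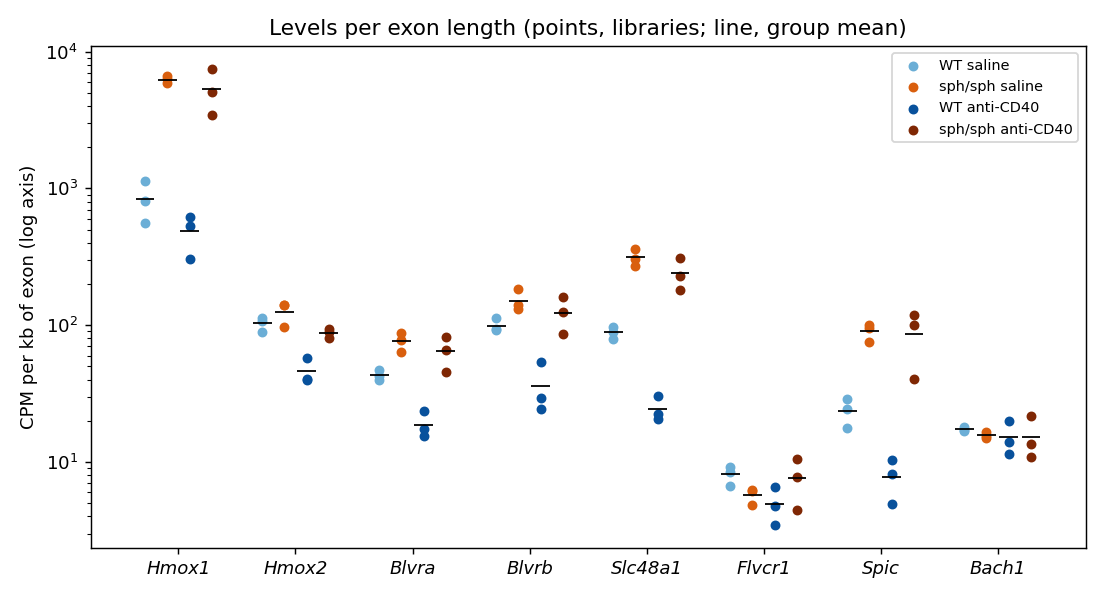
Level of each gene per kb of exon (CPM per kb, log axis) in the 4 groups; points are libraries and lines group means. Hmox1 is the highest member in every group, and Flvcr1 and Bach1 have the lowest means in both saline groups.

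The members lie at separate places in the genome. In GRCm38 Hmox1 (ENSMUSG00000005413) spans chr8:75093621-75100589, Hmox2 (ENSMUSG00000004070) chr16:4726361-4766742, Blvra (ENSMUSG00000001999) chr2:127070665-127097084 and Blvrb (ENSMUSG00000040466) chr7:27447978-27466144. Slc48a1 (ENSMUSG00000081534) spans chr15:97778520-97792692, Flvcr1 (ENSMUSG00000066595) chr1:191005847-191026158, Spic (ENSMUSG00000004359) chr10:88674772-88685015 and Bach1 (ENSMUSG00000025612) chr16:87698945-87733346. Flvcr1 and Spic lie on the minus strand.

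The promoters of 4 members are shown because 3 of them (Blvra, Blvrb and Spic) followed each other over the libraries and Flvcr1 did so less, while they hold or lack the antioxidant response element core (TGACNNNGC), the sequence at which NRF2 activates and BACH1 represses with small MAF partners. Pearson's r of log2 CPM with Blvra over the 12 libraries was 0.97 for Blvrb, 0.96 for Spic and 0.49 for Flvcr1. Each line gives 250 bases before to 50 bases after the RefSeq start site, GRCm38.p6, 5′ to 3′ on the gene's strand, with matches to the core in capitals. The windows are chr2:127070407-127070706 (+) for Blvra, chr7:27447728-27448027 (+) for Blvrb, chr10:88682974-88683273 (-) for Spic and chr1:191026141-191026440 (-) for Flvcr1. The annotated gene Spic runs on to chr10:88685015, so its window lies inside the gene and not at its 5′ end.
Blvra: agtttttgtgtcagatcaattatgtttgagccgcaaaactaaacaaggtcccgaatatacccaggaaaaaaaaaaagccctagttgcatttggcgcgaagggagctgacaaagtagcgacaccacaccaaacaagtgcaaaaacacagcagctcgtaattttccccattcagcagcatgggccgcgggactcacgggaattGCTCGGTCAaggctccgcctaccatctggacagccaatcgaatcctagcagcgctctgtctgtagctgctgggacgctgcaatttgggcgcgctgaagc
Blvrb: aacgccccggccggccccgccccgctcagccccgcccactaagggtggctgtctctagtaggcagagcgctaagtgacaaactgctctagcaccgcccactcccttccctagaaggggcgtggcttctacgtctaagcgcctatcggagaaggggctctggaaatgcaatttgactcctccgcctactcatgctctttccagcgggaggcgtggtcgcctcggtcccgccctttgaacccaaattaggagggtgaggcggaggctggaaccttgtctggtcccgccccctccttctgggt
Spic: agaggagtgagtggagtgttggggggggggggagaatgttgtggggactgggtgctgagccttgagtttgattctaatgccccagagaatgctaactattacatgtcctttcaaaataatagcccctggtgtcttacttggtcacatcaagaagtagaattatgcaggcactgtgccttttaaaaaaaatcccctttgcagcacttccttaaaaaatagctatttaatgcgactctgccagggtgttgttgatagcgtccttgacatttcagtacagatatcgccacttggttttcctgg
Flvcr1: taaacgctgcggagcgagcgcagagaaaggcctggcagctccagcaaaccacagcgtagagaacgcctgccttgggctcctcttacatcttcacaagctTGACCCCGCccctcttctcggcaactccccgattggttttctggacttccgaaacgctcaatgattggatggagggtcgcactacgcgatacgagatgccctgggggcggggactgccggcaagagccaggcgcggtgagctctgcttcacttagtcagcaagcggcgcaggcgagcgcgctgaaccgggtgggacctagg
Blvra holds the core on the reverse strand at positions -49 to -41 from the start site and Flvcr1 on the forward strand at -151 to -143. The windows of Blvrb and Spic hold none, and none of the 4 windows holds the E-box CACGTG, the hypoxia core ACGTG or the PU.1-type core GAGGAAGT. On both strands the antioxidant core occurs in 12.4% of 32544 promoter windows of this length and the PU.1-type core in 3.11%. The E-box occurs in 7.17% and the hypoxia core in 19.7%. Every E-box match contains the hypoxia core, so a window without the hypoxia core cannot hold the E-box. These matches describe letters only. RefSeq windows were found for 6 of the 8 members, and Hmox1 and Slc48a1 had none. The windows of Hmox2 and Bach1, which correlated with Blvra at 0.91 and -0.004, are not shown and hold none of these motifs. Blvrb has another window, at chr7:27452168-27452467 (+), which is not shown and holds the hypoxia core at -123 to -119. A stretch of the bases after each RefSeq start was searched in the gene's GENCODE transcripts, and that of Flvcr1 was the only one not found.

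Under saline, sph/sph were set against WT to see how the cells of anaemic mice differ without further stimulus. Hmox1, Slc48a1 and Spic rose, 3 of the 8 members, and none fell; over all tested genes 2.04% passed (1.6% higher, 0.433% lower). The members had a median log2 fold of 0.71, against 0.01 over all tested genes.

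In WT mice given saline Hmox1 measured 1969 (A), 1416 (B) and 979 (C) CPM. In sph/sph mice given saline it measured 11524, 10339 and 10943 CPM, in the same order of letters, as for all genes below. Every sph/sph library lay above every WT library, and WT libraries spread more, with a coefficient of variation of 34.1% against 5.42%. The log2 fold was 2.91 ± 0.40 (adjusted p = 0.00608, edgeR). Hmox2 stood at 237, 198 and 251 CPM in WT and at 309, 213 and 309 CPM in sph/sph, with overlapping ranges (log2 fold 0.28 ± 0.20, approximate 95% interval -0.16 to 0.72; edgeR adjusted p = 0.627). The exons of Hmox2 share 40.2% of their length with Cdip1 on the opposite strand; its values are uncertain, since nothing states whether counting used the strand. As a share of both heme oxygenases per exon length, Hmox1 made up 88.2% ± 4.40 in WT and 98.0% ± 0.308 in sph/sph (SD, n = 3 each). The ranges did not overlap, and the exact two-sided permutation test gave p = 0.1, the smallest that 3 against 3 allows (0.4 adjusted over 8 tests).

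Slc48a1, the phagolysosomal heme transporter, stood at 267, 247 and 218 CPM in WT and at 844, 740.0 and 995 CPM in sph/sph. No WT library reached the lowest sph/sph library (log2 fold 1.82 ± 0.24; edgeR adjusted p = 0.0053). Spic stood at 93.5, 67.9 and 110.3 CPM in WT and at 367, 287 and 389 CPM in sph/sph, also without overlap (1.94 ± 0.40; edgeR adjusted p = 0.0353). The rise of Slc48a1 passed in each of the 12 fits that left out 1 library. That of Hmox1 did not pass without WT saline B (edgeR adjusted p = 0.0514), and that of Spic was lost on leaving out any 1 of the 6 libraries of saline-treated mice (0.072 to 0.178, adjusted p of edgeR). Nor did Spic pass without library A of sph/sph anti-CD40 (0.0501) or library C of WT anti-CD40 (0.0598). Without the 4 libraries that lack Y-linked reads, 2 per group were left and none of the 3 passed (edgeR adjusted p = 0.129 for Hmox1, 0.12 for Slc48a1 and 0.384 for Spic), with the same direction.

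The reductases lay higher in every sph/sph library without passing the test. Blvra stood at 105, 96.8 and 115 CPM in WT and at 189.5, 155 and 215 CPM in sph/sph (log2 fold 0.82 ± 0.23; edgeR adjusted p = 0.117). It passed without sph/sph anti-CD40 C (edgeR adjusted p = 0.0417), in DESeq2 (0.026) and in the fit of these 2 groups alone (0.0273). Blvrb stood at 312, 258 and 260.1 CPM in WT and at 388, 368 and 509 CPM in sph/sph (0.61 ± 0.31; edgeR adjusted p = 0.452). Ranges that do not overlap, with sph/sph higher, were found for 5 members; over all tested genes the share was 16.7%. The Blvrb share of both reductases per exon length was 69.6% ± 2.98 in WT and 66.5% ± 1.87 in sph/sph, with overlapping ranges (exact permutation p = 0.3, adjusted 0.6).

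Flvcr1 and Bach1 lay slightly lower in every sph/sph library; 14.3% of all tested genes did so. Flvcr1 stood at 43.9, 34.4 and 47.6 CPM in WT and at 32.0, 24.9 and 32.5 CPM in sph/sph (log2 fold -0.49 ± 0.31; edgeR adjusted p = 0.563). Exons of Flvcr1 share 15.6% of their length with an antisense gene, A230020J21Rik. Bach1 stood at 107, 104 and 111 CPM in WT and at 103, 95.1 and 92.0 CPM in sph/sph (-0.15 ± 0.25, interval -0.71 to 0.41; edgeR adjusted p = 0.855).

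Erythroid markers moved with this comparison, 13 of 13 rising. Their part in the members' values was not tested. Of the 8 Kupffer cell markers 1 rose, Marco, and none fell, and no marker of hepatocytes, endothelial, stellate, dendritic, B, T and NK cells, neutrophils or monocytes passed.

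**Figure D2:**
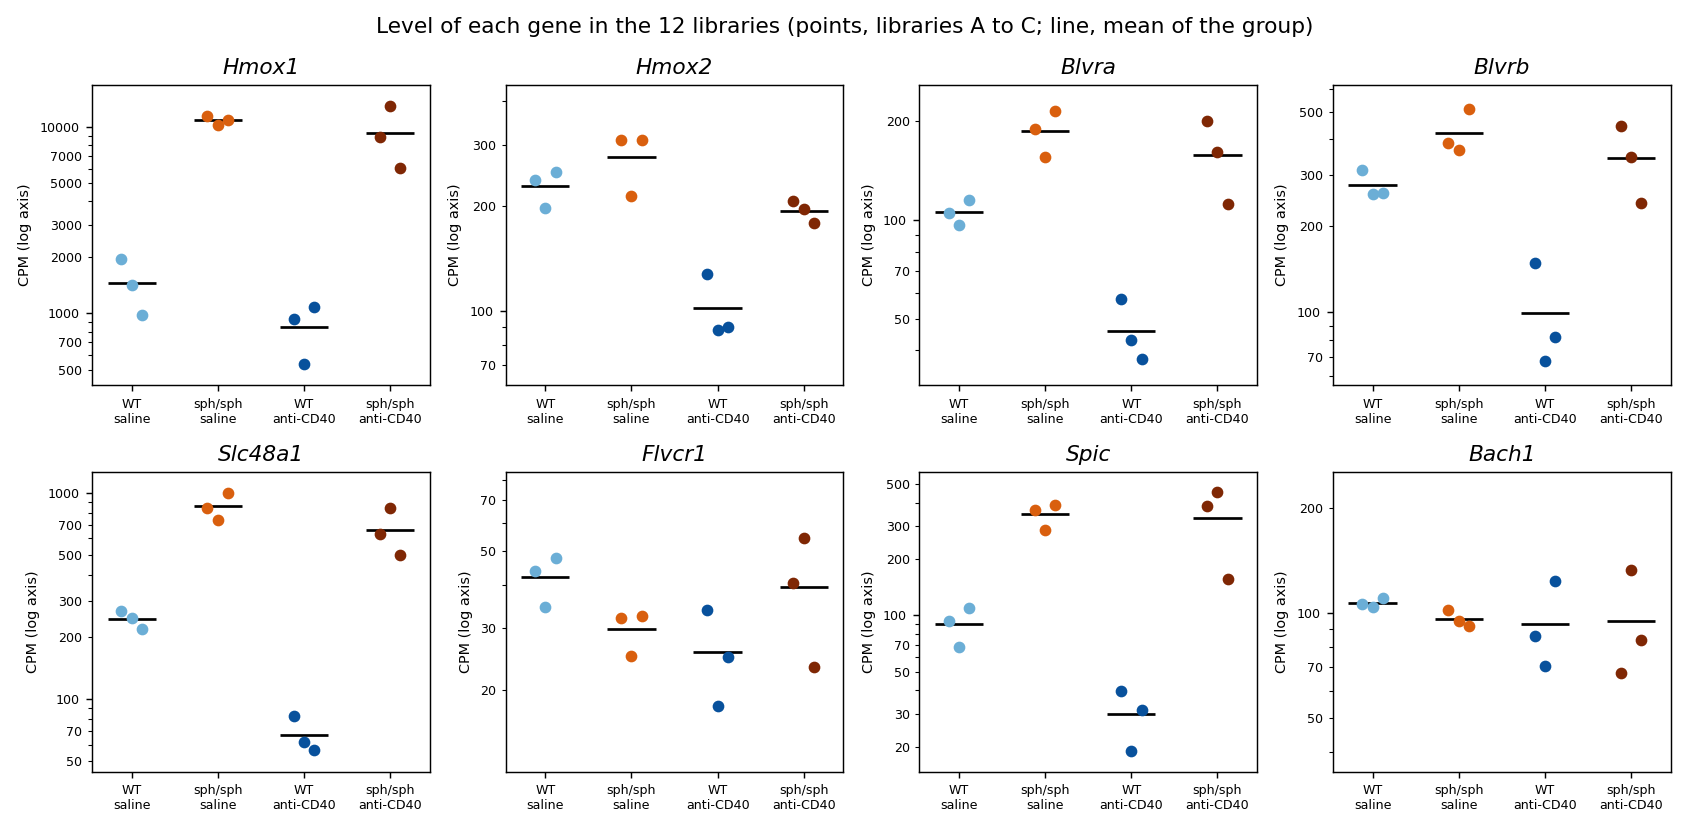
Level (CPM, log axis) of the 8 genes in each library; points are libraries A to C and lines group means. For Hmox1, Slc48a1 and Spic both sph/sph groups lie above both WT groups, and Bach1 varies little between group means (93.4 to 107 CPM).

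How the members respond to CD40 engagement was read first in WT mice, antibody against saline. Hmox2, Blvra, Blvrb, Slc48a1 and Spic fell, 5 of 8, and none rose; of all tested genes 39.2% passed, 19.7% lower and 19.4% higher. The median log2 fold was -1.18 over the members and 0.05 over all tested genes. Slc48a1 fell furthest, to 83.1, 62.0 and 56.3 CPM (log2 fold -1.86 ± 0.24; edgeR adjusted p = 0.000292), below every WT saline library. Ranges below those of saline without overlap were found for 6 members, the 5 that fell and Flvcr1; over all tested genes 28% lay lower and 29.3% higher without overlap. Spic fell to 39.6, 18.9 and 31.5 CPM (-1.59 ± 0.39; edgeR adjusted p = 0.01).

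Of the reductases, Blvrb fell to 149, 68.0 and 82.1 CPM (-1.47 ± 0.31; edgeR adjusted p = 0.00488) and Blvra to 57.4, 42.9 and 37.6 CPM (-1.20 ± 0.23; edgeR adjusted p = 0.00302). Library A was the highest of the 3 for both. Hmox2 fell to 127, 88.4 and 89.9 CPM (-1.17 ± 0.20; edgeR adjusted p = 0.00157). All 5 falls passed in each of the 12 fits without 1 library; without the 4 libraries that lack Y-linked reads Spic did not (edgeR adjusted p = 0.0687).

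Hmox1 stood at 933, 533 and 1082 CPM, a range that overlaps that of WT saline (log2 fold -0.78 ± 0.37, interval -1.60 to 0.05; edgeR adjusted p = 0.122). The Hmox1 share of both oxygenases was 90.8% ± 2.76 (SD, n = 3) against 88.2% under saline (exact permutation p = 0.5, adjusted 0.667), and the Blvrb share of both reductases 64.5% ± 5.74 (exact permutation p = 0.2, adjusted 0.533). Flvcr1 stood at 34.0, 18.0 and 24.8 CPM (-0.72 ± 0.31; edgeR adjusted p = 0.0898). It passed without WT anti-CD40 A (edgeR adjusted p = 0.044), without sph/sph anti-CD40 C (0.0292) and on library totals (0.0434). Bach1 stood at 86.1, 70.5 and 124 CPM (-0.20 ± 0.25; edgeR adjusted p = 0.553).

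Markers of the cells in the preparation differed as well. Kupffer cell markers summed to 829 to 1486 CPM in WT anti-CD40 libraries, 7 of 8 fell and none rose. Adgre1, the antigen of the beads, went from 1578 to 1942 CPM under saline to 39.8 to 173 CPM. The 7 T and NK cell markers all rose, from summed levels of 1.65 to 1.73 CPM to 148 to 1185 CPM, and 4 of 6 monocyte markers and 3 of 6 neutrophil markers rose. So did 2 of 5 dendritic cell markers (Siglech and Ccr7), 1 of 4 B cell markers (Ms4a1) and 1 of 6 endothelial markers (Lyve1). Lower were 2 of 8 hepatocyte markers (Cps1 and Cyp2e1) and 2 of 5 stellate markers (Lrat and Reln). Of 13 erythroid markers 2 fell (Alas2 and Ank1) and 1 rose (Hemgn). The group mean of the summed Kupffer cell markers went from 34015 to 1177 CPM, while the 5 members that fell were 2.25-fold (Hmox2) to 3.64-fold (Slc48a1) lower. The part of these cells in the members' falls was not tested.

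In sph/sph mice, antibody against saline, no member passed, by edgeR, DESeq2 or limma-voom; 1 member, Hmox2, had an unadjusted p under 0.05. Of all tested genes 0.78% passed (0.578% higher, 0.202% lower; 80 and 28 genes, or 71 and 6 on library totals). That background moved with the settings: DESeq2 called 1372 genes, and edgeR called 2372 without sph/sph anti-CD40 C. Hmox1 stood at 8916, 13112 and 6041 CPM in sph/sph anti-CD40 A, B and C (log2 fold -0.22 ± 0.37, interval -1.05 to 0.60; edgeR adjusted p = 0.767). Spic stood at 385, 453 and 156 CPM (-0.07 ± 0.38, interval -0.92 to 0.78; edgeR adjusted p = 0.934) and Slc48a1 at 631, 846 and 499 CPM (-0.38 ± 0.23, interval -0.89 to 0.12; edgeR adjusted p = 0.353). Library C was the lowest of the 3 for Hmox1, Slc48a1 and Spic, and without it the log2 folds of Hmox1 and Spic turned to 0.0045 and 0.26.

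Blvra stood at 199.9, 161 and 112 CPM and Blvrb at 445, 348 and 240.0 CPM, again lowest in C, with ranges that overlap those of saline (log2 folds -0.24 ± 0.23 and -0.29 ± 0.31; edgeR adjusted p = 0.563 and 0.615). Hmox2 stood at 206, 197 and 179 CPM, below all 3 saline libraries (-0.52 ± 0.20; edgeR adjusted p = 0.181); 11.6% of all tested genes lay lower without overlap. Flvcr1 stood at 40.5, 54.6 and 23.3 CPM (0.40 ± 0.31; edgeR adjusted p = 0.471) and Bach1 at 67.3, 133 and 84.0 CPM (-0.03 ± 0.25; edgeR adjusted p = 0.963). The spread among these 3 libraries was wide, with coefficients of variation of 38.0% for Hmox1, 46.9% for Spic and 36.1% for Bach1. The Hmox1 share of both oxygenases was 98.3% ± 0.557 (exact permutation p = 0.7, adjusted 0.8).

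Between genotypes under anti-CD40, 6 members were higher in sph/sph (Hmox1, Hmox2, Blvra, Blvrb, Slc48a1 and Spic) and none fell; of all tested genes 17.7% passed, 11.5% higher and 6.19% lower. The median log2 fold was 1.78 over the members and 0.08 over all tested genes. Mean levels in WT and sph/sph were 849 ± 284 and 9357 ± 3556 CPM for Hmox1 (11.0-fold; log2 fold 3.46 ± 0.41; edgeR adjusted p = 0.000469), and 30.0 ± 10.4 and 331 ± 155 CPM for Spic (11.0-fold; 3.47 ± 0.42; edgeR adjusted p = 0.000555). For Slc48a1 they were 67.1 ± 14.1 and 659 ± 176 CPM (9.81-fold; 3.29 ± 0.25; edgeR adjusted p = 4.22e-05; SD, n = 3 each). The lowest sph/sph library exceeded the highest WT library for all 6; over all tested genes 16.6% lay higher without overlap.

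Blvra and Blvrb rose by nearly the same factor, 3.42-fold and 3.46-fold (log2 folds 1.78 ± 0.24 and 1.79 ± 0.32; edgeR adjusted p = 0.00096 and 0.00415), and their shares did not differ beyond the spread (Blvrb share 65.7% ± 0.447 in sph/sph; exact permutation p = 0.9, adjusted 0.9). Hmox2 rose less (0.93 ± 0.20; edgeR adjusted p = 0.011). In the fit of these 2 groups alone Blvrb and Hmox2 did not pass (edgeR adjusted p = 0.0536 and 0.0705), nor did Hmox2 without the 4 libraries that lack Y-linked reads (0.05003, just above the threshold). The Hmox1 share of both oxygenases differed by 7.41 percentage points (exact permutation p = 0.1, the smallest possible, adjusted 0.4). Flvcr1 had a log2 fold of 0.62 ± 0.31 (edgeR adjusted p = 0.198; 0.0342 without sph/sph anti-CD40 C) and Bach1 one of 0.02 ± 0.25 (edgeR adjusted p = 0.966), which was negative with DESeq2's size factors, on library totals and in the fit of these 2 groups alone.

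Beside these rises all 13 erythroid and all 8 Kupffer cell markers rose in the same comparison, the erythroid sum from 34.8 to 210.4 CPM in WT to 4776 to 17386 CPM in sph/sph and the Kupffer cell sum to 22985 to 40564 CPM. Without Marco the 7 other Kupffer cell markers summed to 507 to 1010 CPM in WT and 12804 to 18769 CPM in sph/sph. Adgre1 stood at 1100.0 to 2236 CPM in sph/sph anti-CD40. Of 7 T and NK cell markers 4 were lower in sph/sph (Ncr1, Gzmb, Prf1 and Klrb1c), as was 1 of 6 endothelial markers, Lyve1, and 2 of 6 neutrophil markers, Elane and Mpo, were higher. The part of these cell types in the members' values was not tested.

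**Figure D3:**
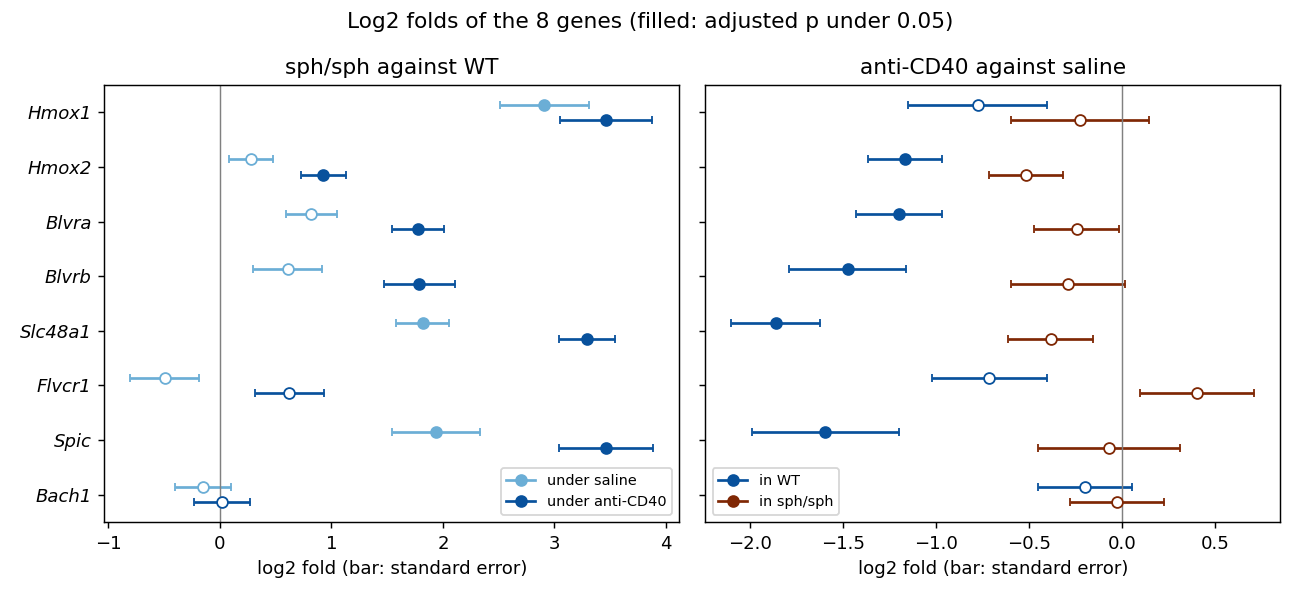
Log2 folds of the 8 genes with SE bars, sph/sph against WT on the left (pale, saline; dark, anti-CD40) and anti-CD40 against saline on the right (blue, WT; brown, sph/sph); filled points passed. On the right no brown point is filled, and 5 blue points are.

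Whether the response to anti-CD40 differed between genotypes was tested as an interaction, in which 4.3% of all tested genes passed (3.18% higher, 1.12% lower). Slc48a1 was the 1 member that passed: its response was 1.48 ± 0.33 higher on the log2 scale in sph/sph than in WT (edgeR adjusted p = 0.033). It did not pass in 8 of 12 fits without 1 library, those without any WT saline library, sph/sph saline A or B, WT anti-CD40 B or C or sph/sph anti-CD40 B (edgeR adjusted p from 0.0613 to 0.0987), nor without the 4 libraries that lack Y-linked reads (0.177). The differences of the other members were 1.52 ± 0.54 for Spic, 1.18 ± 0.44 for Blvrb, 1.12 ± 0.44 for Flvcr1, 0.95 ± 0.32 for Blvra, 0.65 ± 0.28 for Hmox2, 0.55 ± 0.53 for Hmox1 and 0.17 ± 0.36 for Bach1 (edgeR adjusted p from 0.136 to 0.847). On leaving out sph/sph anti-CD40 C, Blvra, Flvcr1 and Spic passed (edgeR adjusted p = 0.0375, 0.0471 and 0.0285), and without WT anti-CD40 A that of Blvrb (0.0282). Of the 8 Kupffer cell markers 6 passed the same interaction, all higher (Clec4f, Vsig4, Timd4, Cd5l, Adgre1 and Csf1r), and the neutrophil marker S100a9 passed lower; no other marker did. Their part in the interaction of Slc48a1 was not tested.

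Over the 12 libraries the log2 levels of Slc48a1 correlated with those of Spic at Pearson r = 0.97, of Blvra at 0.97 and of Hmox1 at 0.94, whereas Bach1 correlated with Hmox1 at 0.06 and with Blvra at -0.004. Blvra and Blvrb correlated at 0.97 and Flvcr1 with Hmox1 at 0.25. The points share the 4 groups and their scaling, so these values only describe likeness. Among all tested genes, those most like Hmox1 were Gclm (r = 0.98), a subunit of the enzyme that starts glutathione synthesis, Me1 (0.98), the cytosolic malic enzyme, and Hba-a2 (0.97), an alpha-globin gene with a near-identical copy. Most like Spic were Armc2 (0.99), Fam213a (0.98) and Senp3 (0.98). Nat8l (0.99), Mrap (0.98) and Gfra4 (0.97) were most like Slc48a1, and Epb41l3, Rabl6 and Acp5 (0.98, 0.97 and 0.97) most like Blvrb.

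Genes around the pathway were read from 5 lists, whose medians are set against those of all tested genes, 0.01 under saline, 0.08 under anti-CD40 (both sph/sph against WT) and 0.05 for anti-CD40 in WT. The counts of called genes stand beside these shares of all tested genes: 1.6% higher and 0.433% lower under saline, 11.5% and 6.19% under anti-CD40. For anti-CD40 in WT they were 19.4% higher and 19.7% lower. Of 14 heme synthesis genes 3 rose in sph/sph under saline (median log2 fold 0.81) and 10 under anti-CD40 (1.35), with none lower. Alas2, the first enzyme of heme synthesis in red cell precursors, went from 7.61 to 237 CPM under saline (log2 fold 4.96 ± 0.55; edgeR adjusted p = 0.00324) and from 2.83 to 371 CPM under anti-CD40 (7.05 ± 0.61; edgeR adjusted p = 8.82e-05). Fech, the last enzyme, which inserts iron, rose by 0.95 ± 0.17 under saline and 2.16 ± 0.18 under anti-CD40 (edgeR adjusted p = 0.0225 and 7.17e-05). Alas1, the form used outside red cell precursors, had means of 93.4 ± 30.4 CPM (WT) and 59.6 ± 24.7 CPM (sph/sph) under saline and did not pass (edgeR adjusted p = 0.613). In WT, anti-CD40 lowered 5 of the 14 (median -0.43), among them Fech (-1.25 ± 0.18) and the mitochondrial carrier Slc25a39 (-0.92 ± 0.19; edgeR adjusted p = 0.000537 and 0.0039). The erythroid sums given above were higher in sph/sph in both genotype comparisons, as were the called genes of this list, and Alas2 belongs to both lists. With anti-CD40 in WT 2 of 13 erythroid markers fell (Alas2 and Ank1) and 1 rose (Hemgn), and the erythroid sums overlapped those of saline. The part of erythroid cells in this list was not tested.

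Of 13 tested genes of other heme and haemoglobin transport or binding, 1 rose in sph/sph under saline (median 0.37): Flvcr2, the relative of Flvcr1, with 120 counts over the 3 sph/sph libraries against 2 in WT (ratio 63.4, counting interval 17.2 to 529), which reached 2.42 ± 0.493 CPM in sph/sph saline. The counting interval pools the reads of a group and holds no spread between mice. Under anti-CD40 5 (median 1.98) were higher in sph/sph, led by Cd163, the haemoglobin-haptoglobin receptor (267 ± 150.1 against 0.529 ± 0.521 CPM), the heme-binding protein gene Hebp1 (263 against 33.5 CPM), the porphyrin transporter Abcb6 (2.19 ± 0.28) and Slc46a1 (2.09 ± 0.33). Under saline Cd163 stood at 1890, 2282 and 3120 CPM in WT and at 412, 682 and 748 CPM in sph/sph, lower without overlap (log2 fold -1.99 ± 0.56; edgeR adjusted p = 0.122). It fell furthest of this list with anti-CD40 in WT, from a mean of 2431 to one of 0.529 CPM (-12.22 ± 0.89; edgeR adjusted p = 1.59e-05). In WT, anti-CD40 lowered 6 and raised 3 of them (median -0.88), the raised ones including haptoglobin, Hp (3.40 ± 0.92), and Tspo (3.26 ± 0.62). Fabp1, a fatty-acid binding protein gene, was among those that fell (-3.77 ± 0.82). Hp and Fabp1 are also hepatocyte genes. Of 8 hepatocyte markers 2 fell with anti-CD40 in WT (Cps1 and Cyp2e1) and none rose. In WT, Alb, the albumin gene, ranged from 672 to 2769 CPM under saline and 259.9 to 760.1 CPM with anti-CD40, and did not pass. The mean of the marker Fgb went up in WT, from 110 to 256 CPM, also without passing. The part of hepatocytes in this list was not tested.

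Of 10 tested partners and relatives of BACH1, 1 rose in sph/sph under saline (median 0.20): Fbxo22, part of a ligase that marks BACH1 for degradation, from 25.7 ± 2.08 to 56.7 ± 3.05 CPM (log2 fold 1.14 ± 0.14; edgeR adjusted p = 0.00449). It also rose with anti-CD40 in WT (0.70 ± 0.14), as did 3 others, among them the small MAF gene Maff, from 1.76 to 116 CPM (6.04 ± 0.75). Under anti-CD40 Maff was lower in sph/sph than in WT (mean 25.2 CPM, log2 fold -2.20 ± 0.62, edgeR adjusted p = 0.0341), as was Fbxl17 (-0.43 ± 0.13), with a list median of -0.13. Libraries A, B and C held Maff at 195, 64.7 and 87.2 CPM in WT and at 33.4, 36.4 and 5.71 CPM in sph/sph. The call of Fbxl17 was lost in 10 of 12 fits without 1 library.

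Of 12 genes that BACH1 represses and NRF2 activates, 3 rose in sph/sph under saline, Me1 (2.56 ± 0.45), Gclm (1.60 ± 0.28) and Gclc (0.68 ± 0.14), and none fell (median 0.98); 5 were higher under anti-CD40 (0.89). In WT anti-CD40 raised 4 and lowered 4 of them, against 19.4% higher and 19.7% lower over all tested genes. On the log2 scale Slc7a11, the cystine transporter, rose by 8.26 ± 1.68 and the ferritin gene Fth1 by 1.76 ± 0.49. Slc40a1, the iron exporter ferroportin, fell by 5.56 and Osgin1 by 1.30. Of 8 genes of SPIC-dependent macrophages only Vcam1 rose in sph/sph under saline (1.98 ± 0.31; median -0.01), while 7 fell with anti-CD40 in WT (median -5.37) and 7 were higher in sph/sph under anti-CD40 (median 4.48), including Paqr9 (160.2 against 4.14 CPM) and Slc40a1 (3416 against 127 CPM). Kupffer cell markers moved in the same comparisons, 7 of 8 lower with anti-CD40 in WT and 8 of 8 higher in sph/sph under anti-CD40. Clec4f went from 10025 to 4.29 CPM in WT and stood at 2098 CPM in sph/sph under anti-CD40. Their part in the values of this list was not tested. No gene of the 5 lists passed for anti-CD40 in sph/sph by edgeR. In the interaction, where 4.3% of all tested genes passed, 1 gene did in the first list (Fech) and 2 in the second (Cd163 and Hebp1). So did 1 in the third (Fbxo22, lower), 1 in the fourth (Slc40a1) and 5 in the last. Cd163 belongs to the second and last lists and Slc40a1 to the fourth and last. Where they passed, in any comparison, each is counted in both of its lists. The calls of Cd163 and Slc40a1 passed in all 12 fits without 1 library, whereas those of Fech, Fbxo22 and Hebp1 were lost in 7, 8 and 10. Without the 4 libraries that lack Y-linked reads neither these 3 nor Slc40a1 passed. Of the saline calls, those of Alas2, Flvcr2 and Fbxo22 passed in all 12 fits without 1 library, that of Vcam1 was lost in 3, of Fech in 4, of Gclm and Me1 in 5 and of Gclc in 8; none of these 8 passed without the 4 libraries that lack Y-linked reads. The call of Maff under anti-CD40 was lost in 6 of 12 fits, and the rises of Hp and Fth1 with anti-CD40 in WT in 2 and 4.

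**Figure D4:**
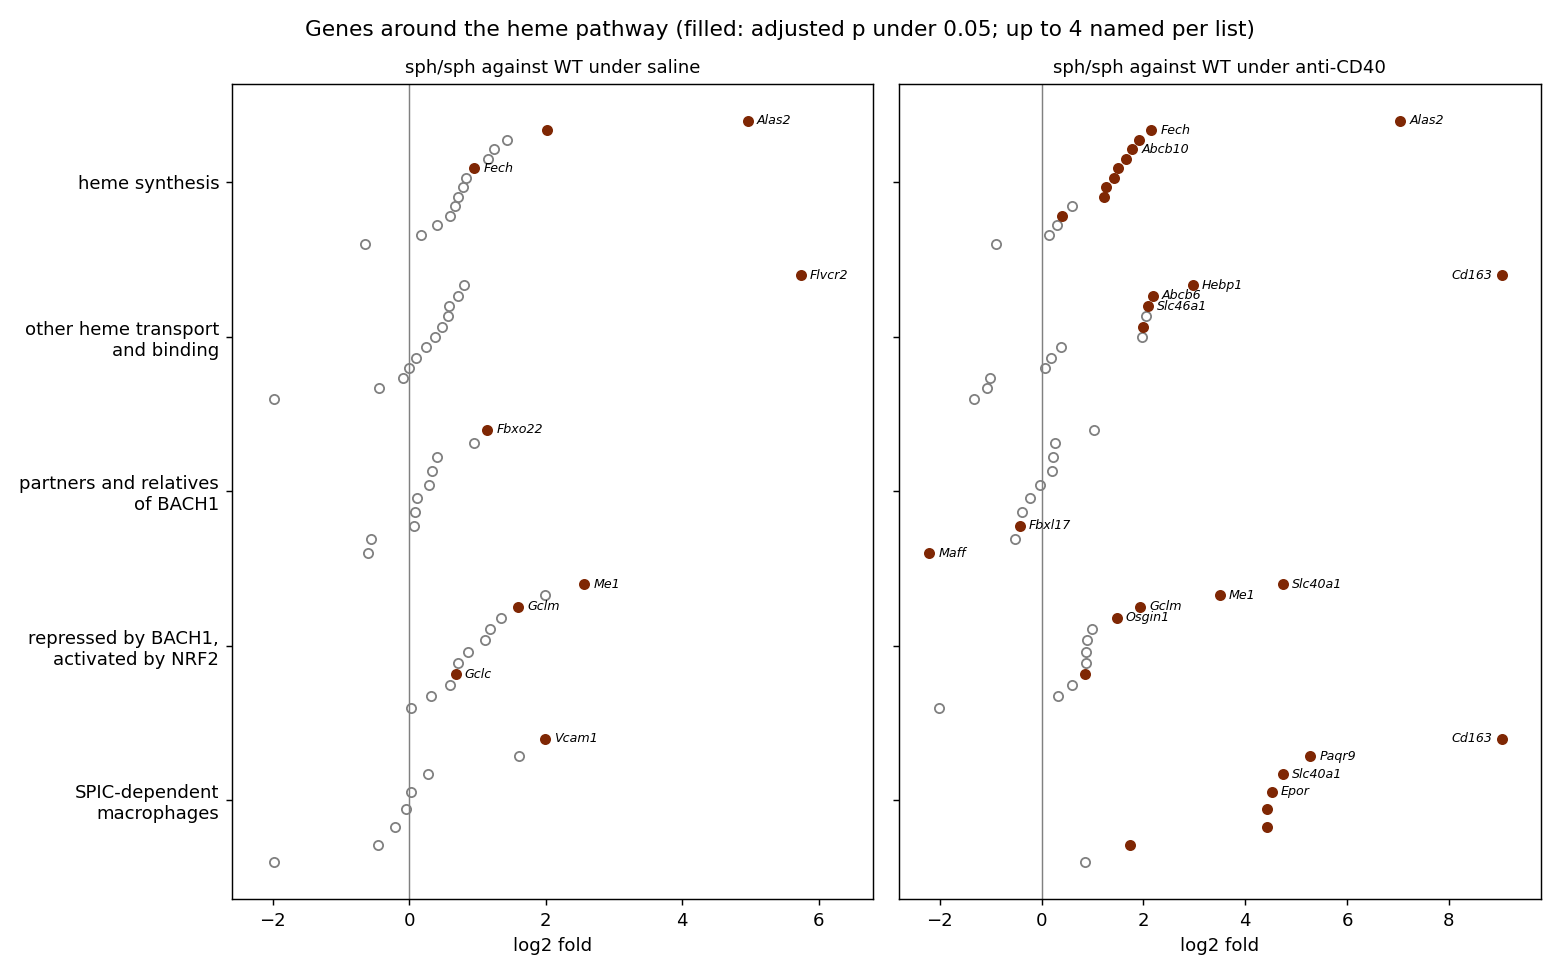
Log2 folds of the tested genes of 5 lists, sph/sph against WT under saline (left) and under anti-CD40 (right); filled points passed and up to 4 per list are named. Alas2 lies at 4.96 and 7.05, and 7 of 8 genes of SPIC-dependent macrophages are filled on the right against 1 on the left.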

How the data were processed

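The authors deposited read counts per Ensembl gene, 1 column per library, unnormalized. The submitters' processing notes name featureCounts, SAMtools 1.9, STAR 2.7.0e and the build GRCm38.p5. The library kit was stranded, per the labels' protocols; for the counting, neither annotation, strand nor handling of multi-mapping reads is given in the sources used here. Symbols matched 25587 of 25700 identifiers. In R 4.3.3, edgeR 4.0.16 tested 13844 genes (filterByExpr, TMM, robust quasi-likelihood fit, 1 mean per group); limma 3.58.1 (voom) and DESeq2 1.42.0 were alternatives. SE is the log2 fold's size over the root of F; 95% intervals take the t quantile at the fit's degrees of freedom. Exon lengths and overlaps come from GENCODE M21 (GRCm38). Shares were compared by exact permutation. The design text counts mice, so libraries are taken as separate animals. The 8 members and all lists were chosen with earlier results of these data known. Named list genes are up to 4 called genes of largest log2 fold per list and comparison; Alas1 was chosen after its values were seen. Results that rest on withheld items are not reported here. The fit was tested on simulated data.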

Additional observations from a re-analysis of the deposited data

Results flagged for a closer look

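The response of Slc48a1, the phagolysosomal heme transporter, to anti-CD40 differed between sph/sph and WT mice by the test of the difference itself. It was 1.48 higher on the log2 scale in sph/sph (edgeR adjusted p = 0.033), with responses of -1.86 in WT and -0.38 in sph/sph. The adjusted p ranged from 0.0147 to 0.0987 over the fits that left out 1 library, and it was 0.177 without the 4 libraries that lack Y-linked reads. Of the 8 Kupffer cell markers 6 passed the same test in the same direction, and their part was not tested.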

How the results depend on the processing

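No paired analysis was possible because the columns of the count table carry no replicate number and share an identifier for only 1 pair of libraries per treatment, so the planned replicate block was not run. Of 792 refitted log2 folds of the members 741 kept their direction and their side of the threshold, 25 were no longer past it, 11 moved past it and 15 changed sign. Those that changed sign were small: Bach1 for sph/sph against WT under anti-CD40 was -0.0195 with DESeq2's size factors in edgeR, -0.0197 in DESeq2, -0.0824 on library totals, -0.0339 in the fit of these groups alone and -0.30 to 0.29 over fits without 1 library, Bach1 for anti-CD40 in sph/sph was 0.21 without the 4 libraries that lack Y-linked reads (an alternative chosen after seeing the data) and -0.35 to 0.17 without 1 library, and Bach1 for the interaction -0.15 to 0.45. For anti-CD40 in sph/sph, Hmox1 ranged from -0.55 to 0.0045 and Spic from -0.36 to 0.26. The number of members called ranged without 1 library from 1 to 4 (sph/sph against WT under saline), 5 to 6 (anti-CD40 in WT), 0 (anti-CD40 in sph/sph), 6 to 7 (sph/sph against WT under anti-CD40) and 0 to 4 (interaction). Without the 4 libraries that lack Y-linked reads it was 0 under saline and 0 for the interaction, with 2 libraries per group left. The differences in share, in percentage points, ranged without 1 library from 7.36 to 11.4, 0.15 to 4.23, -0.084 to 0.471 and 6.20 to 8.92 for Hmox1 and from -4.77 to -1.82, -7.68 to -2.03, -1.84 to -0.216 and -1.91 to 3.73 for Blvrb, in the order of the first 4 comparisons. All 32 group levels on library totals stayed within 1 SD. Of 1490 refits of called list genes 197 were no longer past the threshold and none changed sign; the cause was not tested.

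Counts over all genes moved more. DESeq2 called 831 genes under saline against 282, 1372 against 108 for anti-CD40 in sph/sph and 1393 against 595 for the interaction. Fits of the groups compared called 891 under saline, 0 for anti-CD40 in sph/sph and 735 against 2455 for sph/sph against WT under anti-CD40. Without the 4 libraries that lack Y-linked reads the counts were 13, 2845 (against 5420 for anti-CD40 in WT), 0, 1174 and 153, in the order of the comparisons. Leaving out 1 library gave 73 to 539, 3841 to 6583, 0 to 2372, 1355 to 3408 and 259 to 944.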
